A study of Rattus norvegicus with 15 samples.

Results

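Cell cycle and DNA replication genes were followed in the liver of young male Sprague-Dawley rats fed genistein, daidzein or neither. The set comprised 45 named genes, taken from the probe sets whose platform annotation names only that gene, with the brightest one standing for a gene that has several. Of the 45, 42 had such a probe set, 34 were bright enough to be tested and 8 were dim. Rrm2 and Hmgb2 had only probe sets shared with other genes, and Tpx2 was not analysed here. For comparison, 14217 genes of the array had a single-gene probe set and 10745 of them were tested.

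The study fed diets based on casein, palm oil, corn starch and sucrose for 14 days, starting from rats that arrived at 4 weeks of age and were given 5 days to adapt. The genistein group received 2 g/kg of genistein, the daidzein group 2 g/kg of daidzein, and the control group the same base diet free of isoflavones. Each group held 5 rats, each with its own 1-channel Affymetrix array of liver total RNA, and an array is called by its diet and the number in its title. Genistein and daidzein are soy isoflavones, which differ in that genistein carries a hydroxyl group that daidzein lacks. All groups were growing intact males of 1 strain on a semi-purified diet, so adult or regenerating liver was not examined.

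A cell that divides first licenses its replication origins by loading the Mcm helicase, copies its DNA in S phase, and then enters mitosis when Cdk1 is activated by B-type cyclins. Progression from G1 is driven by D- and E-type cyclins with Cdk4 and Cdk2, and is held back by inhibitors such as Cdkn1a and Cdkn1b. Many genes of the later steps are transcribed mainly in cycling cells. In liver most hepatocytes rest, and the growing liver of a young animal still holds some dividing cells, both hepatocytes and other cell types. In bulk RNA of this kind, fewer cells of a type and less RNA per cell cannot be told apart.

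Levels are given in log2 units whose zero is arbitrary, rebuilt from the deposited scores, so levels of different genes are not compared. Any pair of the 15 arrays correlated between 0.931 and 0.969 over the tested probe sets. Of 8 hepatocyte markers, 7 had a probe set and all 7 were above the filter. Their mean level was 7.93 to 8.04 on genistein arrays, 7.98 to 8.05 on daidzein arrays and 7.96 to 8.06 on control arrays. Quantile normalization gives the brightest probe sets nearly the same value on every array, and the marker Alb was the brightest of all. These narrow ranges are therefore largely set by the normalization and do not measure hepatocyte content. All measured Kupffer cell, endothelial and stellate markers were above the filter too, so passing it does not single out hepatocytes. A number in the description field differed from the number in the title for 9 arrays, and titles were used throughout.

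No cell cycle gene passed the test in any of the 3 diet comparisons. With limma and Benjamini-Hochberg adjustment over 18625 probe sets, 0 of 34 genes were called for genistein against control (lowest adjusted p = 0.331), where 0.322% of all probe sets were called. For daidzein against control 0 of 34 were called (lowest adjusted p = 0.483), beside 0.0161% of all probe sets. For genistein against daidzein 0 of 34 were called (lowest adjusted p = 0.244), beside 0.113% of all probe sets. An unadjusted p under 0.05 was reached by 1, 1 and 2 of the 34 genes in these comparisons, against 10.9%, 8.3% and 9.39% of all probe sets.

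Confidence intervals bounded most of the changes. The 95% confidence interval lay within 1 log2 unit of no change for 34 of 34 genes in each isoflavone diet against control, and for 33 of 34 between the isoflavones. The exception was Cdc25b, the phosphatase that switches on Cdk1, whose interval in genistein against daidzein went down to -1.12. The median log2 change was -0.11 for genistein against control, with 15 of 34 genes higher, and 0.06 for daidzein against control, with 24 of 34 higher. It was -0.04 for genistein against daidzein, with 12 of 34 higher, and the median over all probe sets was 0.00 in each comparison. The comparisons with control share the same 5 control arrays. These medians depended on single arrays: without genistein 3, the median was 0.01 for genistein against control, with 19 of 34 genes higher, and 0.00 for genistein against daidzein, with 18 of 34 higher. Daidzein against control had a median of -0.01 without control 4 and also without control 5. With the number of the description field as a block, it had a median of -0.04, with 13 of 34 higher. The description numbers of control 3 and control 5 occur in no other diet, and these arrays were put in 1 block together. That fit therefore compared the diets with control 1, control 2 and control 4 only.

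**Figure D1:**
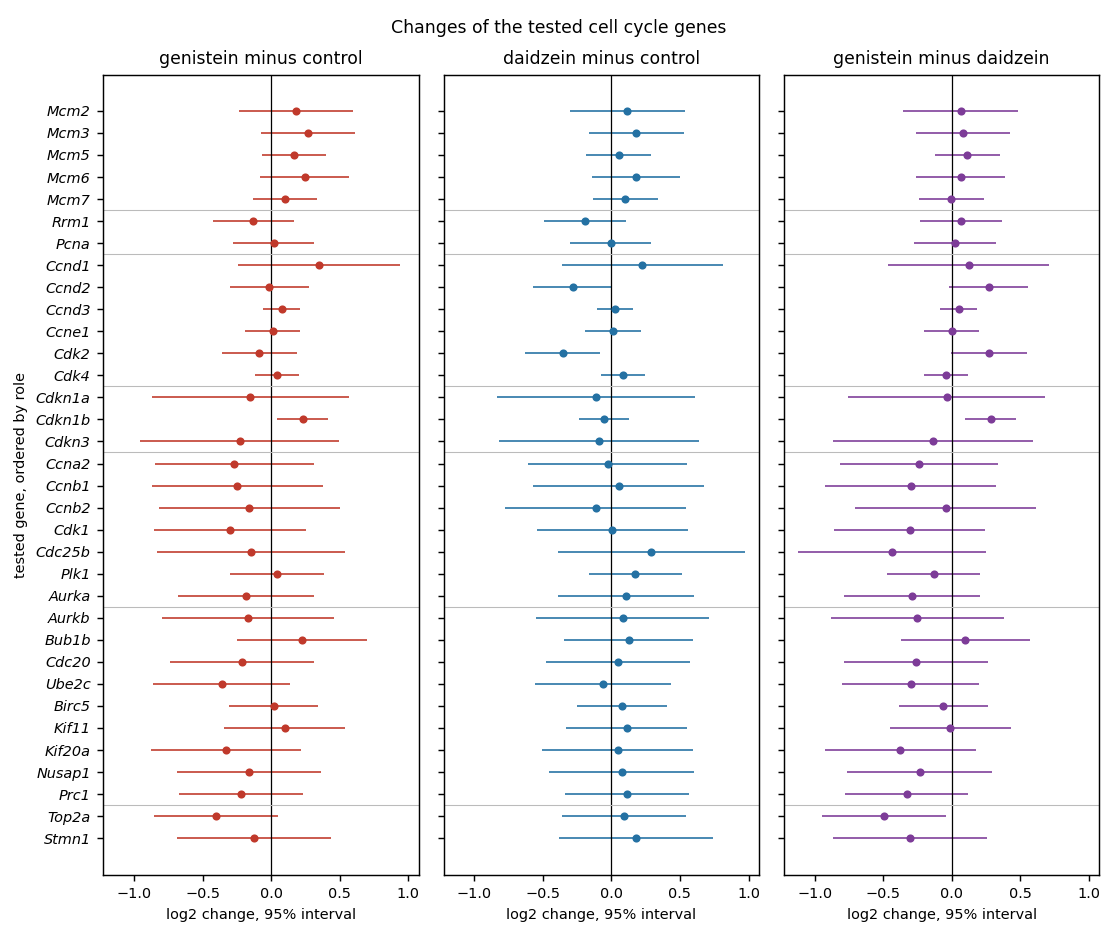
Log2 change (points) and 95% confidence interval (bars) of the 34 tested genes, from top to bottom by role, for the genistein and the daidzein diet, each against control, and for genistein against daidzein. Most intervals cross 0; those that do not are Cdkn1b for genistein against control, Cdk2 for daidzein against control, and Cdkn1b and Top2a for genistein against daidzein, none of which passed the adjusted threshold.

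Origin licensing genes came first by role. Mcm2, Mcm3, Mcm5, Mcm6 and Mcm7 are subunits of the ring-shaped helicase loaded at origins, and all 5 averaged above control on genistein, by 0.10 to 0.27 log2 units, and on daidzein, by 0.05 to 0.18 log2 units, with the same control arrays in both. None was called, with a lowest adjusted p of 0.598 for genistein and 0.786 for daidzein in limma. Mcm3 was at 0.08 ± 0.11 on genistein, 0.00 ± 0.28 on daidzein and -0.18 ± 0.35 in control (mean ± SD, n = 5 each), and Mcm5 at 0.56 ± 0.05, 0.44 ± 0.16 and 0.39 ± 0.24 in the same diets. Control 1, control 2 and control 5 were below the 15-array mean for all 5 genes, and control 3 was above it for all 5. Without control 5, the median over these genes was 0.09 log2 units for genistein and 0.04 for daidzein, with 5 of 5 and 4 of 5 genes higher than control.

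The remaining Mcm subunit, Mcm4, was dim, with a mean level below the filter of -0.30 and 8 of 15 arrays under it. It is singled out after its values were seen. Its levels were 0.27, 0.10, -0.05, -0.27 and 0.01 on the genistein arrays 1 to 5, against -0.35, -0.99, -1.11, -0.25 and -0.38 on the control arrays. The daidzein arrays gave -0.10, -0.36, -0.33, -0.44 and -0.70. The 5 genistein arrays all lay above the control mean and above the daidzein mean, but genistein 4 lay below control 4, and the lowest genistein array lay below the highest daidzein array. In a limma fit without the level filter the change was 0.63 ± 0.18 log2 units (SE) for genistein against control (unadjusted p = 0.00332, adjusted p = 0.286) and 0.40 ± 0.18 for genistein against daidzein (adjusted p = 0.672). Gmnn, the geminin that blocks relicensing, was dim in 11 of 15 arrays.

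The next group supplies nucleotides and clamps the polymerase to DNA. Pcna, the sliding clamp, was at 3.89, 3.46, 3.43, 3.59 and 3.66 on genistein, 3.94, 3.28, 3.59, 3.51 and 3.58 on daidzein, and 3.34, 3.88, 3.77, 3.61 and 3.32 in control. The 3 diets covered nearly the same range, and the change was 0.02 log2 units (95% interval -0.28 to 0.32) for genistein and -0.01 (-0.30 to 0.29) for daidzein against control. Rrm1, the large subunit of ribonucleotide reductase, had a log2 change of -0.13 for genistein and -0.19 for daidzein against control (adjusted p = 0.809 and 0.74 in limma). Tyms, the thymidylate synthase, was dim in 10 of 15 arrays and had a log2 change of 0.37 for genistein against control without the level filter (unadjusted p = 0.0823, adjusted p = 0.656 in limma).

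G1 cyclins and kinases had the lowest median within-diet SD of the 7 roles. Ccnd1, the cyclin that starts G1 progression and is prominent in regenerating liver, was at 3.42, 2.74, 3.04, 2.61 and 1.76 on genistein, against 2.24, 2.27, 1.89, 2.69 and 2.73 in control. The daidzein arrays read 2.38, 2.29, 3.08, 2.23 and 2.97. The genistein group held both the highest and the lowest of the 15 values, and the groups overlapped throughout. Ccnd1 changed by 0.35 log2 units for genistein against control (95% interval -0.24 to 0.94) and by 0.23 for daidzein against control (-0.36 to 0.81), and was not called in limma (adjusted p = 0.711 and 0.871). Its other probe sets gave 0.01 and -0.07 for genistein against control, so the value depended on the probe set.

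Cdk2, the kinase of late G1 and S phase, was the G1 gene with the lowest p in daidzein against control. Its levels were 0.56, 0.18, 0.56, 0.97 and 0.70 on daidzein, against 1.17, 0.84, 0.85, 0.91 and 0.97 in control, with 0.84, 0.65, 1.10, 0.92 and 0.81 on genistein. Of the daidzein arrays, 4 of 5 lay below every control array, and daidzein 4 reached the control range. The change was -0.36 ± 0.13 log2 units (SE), with an unadjusted p of 0.0143 and an adjusted p of 0.483 in limma. A second Cdk2 probe set gave -0.16 (unadjusted p = 0.463 in a limma fit without the level filter). Ccnd2, another D-type cyclin, had a log2 change of -0.28 for daidzein against control (adjusted p = 0.606 in limma). The other G1 genes were bounded closely. Ccnd3, the remaining D-type cyclin, Ccne1, the E-type cyclin, and Cdk4, the partner of D-type cyclins, had log2 changes against control of 0.08, 0.01 and 0.04 on genistein and 0.03, 0.01 and 0.09 on daidzein.

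Among the cyclin-dependent kinase inhibitors, Cdkn1b had the lowest p of all 34 genes. Cdkn1b holds cells in a resting state by binding cyclin and kinase complexes. Its levels were 2.40, 2.19, 2.49, 2.47 and 2.32 on genistein, 2.12, 1.90, 2.11, 2.18 and 2.12 on daidzein, and 2.14, 1.97, 2.05, 2.28 and 2.27 in control. The lowest genistein array lay just above the highest daidzein array, so these groups did not overlap, which holds for 2.05% of all probe sets. For genistein against control and daidzein against control, 0 of the 34 genes had groups that did not overlap, against 2.56% and 1.86% of all probe sets. Genistein exceeded daidzein by 0.28 ± 0.09 log2 units (SE), 1.22-fold, with an unadjusted p of 0.00517 and an adjusted p of 0.244 in limma. Against control, the genistein arrays were 0.23 ± 0.09 higher (unadjusted p = 0.0178, adjusted p = 0.331), with 5 of 5 above the control mean but overlapping the control range. Its other probe set was dim and gave 0.10 for genistein against daidzein.

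Cdkn1a, the inhibitor switched on by p53, was among the most variable genes. Its levels were 1.42, 2.00, 1.03, 2.69 and 1.82 on genistein, 1.57, 2.89, 1.46, 2.01 and 1.22 on daidzein, and 1.44, 2.35, 1.58, 1.94 and 2.40 in control. High and low values occurred in every diet. The log2 change against control was -0.15 on genistein, with a 95% interval of -0.87 to 0.57, and -0.11 on daidzein, with an interval of -0.83 to 0.61. Cdkn3, a phosphatase acting on Cdk1 and Cdk2, had a log2 change of -0.23 for genistein and -0.09 for daidzein against control (adjusted p = 0.874 and 0.959 in limma).

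The mitotic genes were the largest group, with 7 tested genes of mitotic entry and 9 of the spindle, its checkpoint and cytokinesis. Of these 16, 4 averaged higher on genistein than in control and 13 higher on daidzein than in control. Only Bub1b of the 16, a checkpoint kinase, averaged higher on genistein than on daidzein, and the median was -0.26 log2 units. None was called in limma, where the lowest adjusted p was 0.63 on genistein and 0.809 on daidzein, each against control, and 0.712 when the isoflavones were compared. Without genistein 3, 7 of 16 were higher for genistein against control and 4 of 16 for genistein against daidzein, with medians of -0.05 and -0.13. Without control 2, 6 of 16 were higher on genistein than in control (median -0.04), and without control 5, 1 of 16 (median -0.29). For daidzein against control, 5 of 16 were higher without control 4 and 4 of 16 without control 5, against 16 of 16 without control 2 (median 0.19) and 16 of 16 without daidzein 2 (median 0.15).

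Cdk1, the kinase that triggers mitosis, was at 1.67, 1.06, 0.51, 1.39 and 1.18 on genistein, 1.71, 1.10, 1.50, 1.74 and 1.31 on daidzein, and 1.59, 2.07, 1.91, 0.80 and 0.94 in control. Genistein 3 was the lowest and control 2 the highest of the 15, while control 4 and control 5 lay below all 5 daidzein arrays. The log2 change was -0.30 for genistein against control (95% interval -0.85 to 0.25, adjusted p = 0.747 in limma) and 0.01 for daidzein against control (-0.55 to 0.56). The anaphase activators Cdc20 and Ube2c had log2 changes of -0.21 and -0.36, and the kinesin Kif20a -0.33, for genistein against control. For Ube2c the adjusted p was 0.63 and for Kif20a 0.708 in limma. The cyclins Ccna2, Ccnb1 and Ccnb2 had log2 changes of -0.27, -0.25 and -0.16, and the kinases Aurka and Aurkb -0.18 and -0.17, in the same comparison. A second Ccnb1 probe set gave -0.08 there. Plk1, a mitotic kinase, Birc5, which guides Aurkb to centromeres, and the spindle motor Kif11 had log2 changes of 0.04, 0.02 and 0.10.

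Top2a, the topoisomerase that untangles sister chromosomes, had the largest difference between the isoflavones. Its levels were 1.16, 0.36, 0.60, 0.64 and 0.24 on genistein, 1.25, 1.21, 0.65, 0.87 and 1.47 on daidzein, and 1.42, 1.08, 1.30, 0.50 and 0.69 in control. On genistein, 4 of 5 arrays lay at or below 0.64, beneath every daidzein array, and genistein 1 lay among the daidzein values. The difference was -0.49 ± 0.21 log2 units (SE) for genistein against daidzein (unadjusted p = 0.0354, adjusted p = 0.489) and -0.40 ± 0.21 against control (adjusted p = 0.529) in limma. A second Top2a probe set gave -0.15 between the isoflavones and -0.50 against control. Stmn1, a tubulin-binding protein, had a log2 change of -0.30 between the isoflavones.

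Mki67, the standard proliferation marker, was dim, with 7 of 15 arrays below the filter. Its levels were 0.11, -0.35, -1.66, -0.73 and -0.73 on genistein, 0.30, -1.20, -0.16, -0.26 and -0.02 on daidzein, and 0.01, 0.05, -0.05, -0.68 and -0.42 in control. The lowest value was again genistein 3. Without the level filter, limma gave a log2 change of -0.45 for genistein (95% interval -1.13 to 0.22, adjusted p = 0.769) and -0.05 for daidzein against control (adjusted p = 0.981). Bub1, Mad2l1, Racgap1 and Cenpf, of the checkpoint, cytokinesis and kinetochore, were also dim, with log2 changes of 0.06, 0.03, -0.32 and 0.08 for genistein against control. Other dim probe sets differed from these: an almost equally bright one of Mad2l1 gave -0.36 for genistein against control (unadjusted p = 0.0396 in limma without the level filter) and -0.42 against daidzein (unadjusted p = 0.0185), and a second one of Racgap1 gave 0.25 for genistein against control. The Mad2l1 probe sets correlated at -0.03. The filter fell between Kif11, tested at a mean of -0.28, and Mcm4 at -0.33.

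**Figure D2:**
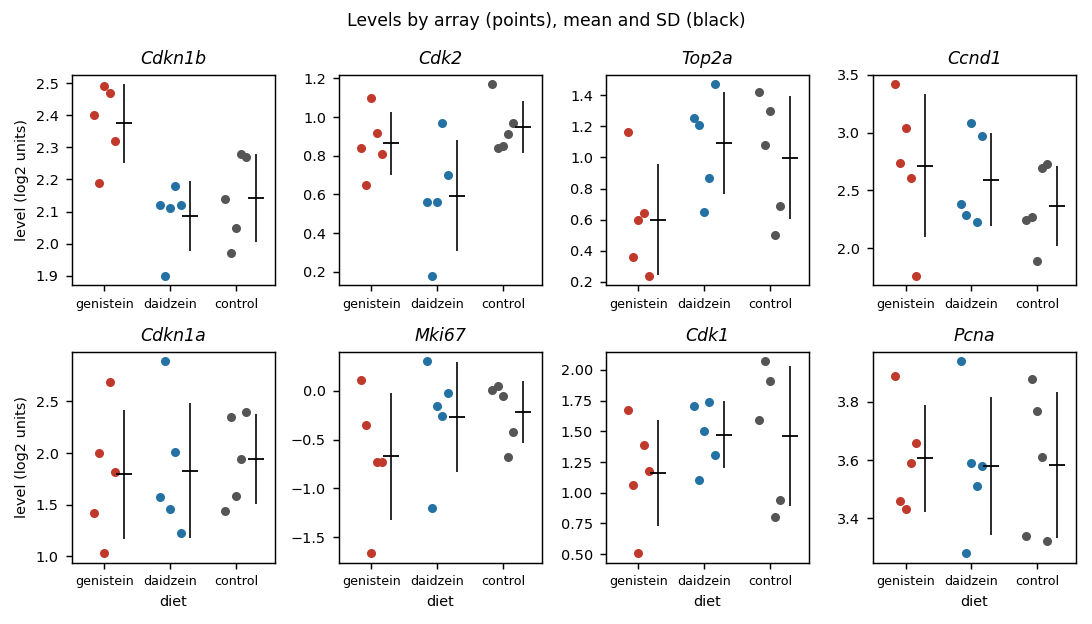
Level in log2 units (vertical axis, arbitrary zero, scaled separately for each gene) of 8 genes in the 5 arrays of each diet, with the mean and SD of the 5 arrays in black. Only Cdkn1b, on genistein against daidzein, showed groups that did not overlap. Cdk1, Mki67 and Cdkn1a have their lowest value in genistein 3, Ccnd1 and Top2a in genistein 5, and Cdkn1b, Cdk2 and Pcna in daidzein 2.

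Rats on the same diet varied widely in much of the set. The within-diet SD had a median of 0.358 log2 units over the 34 genes and 0.22 over all tested probe sets. It was 0.463 for mitotic entry, 0.396 for the spindle group and 0.249 for licensing, but 0.173 for the G1 cyclins and kinases. Arrays that were high or low for one mitotic gene were often so for others. Over the 16 mitotic genes, genistein 3 was the lowest of all 15 arrays for 9 and above the mean for 1, and control 2 was the highest of all 15 for 10 and above the mean for 15. Control 4 and control 5 were each above the mean for 1 of 16, control 3 for 15, and daidzein 2 was the lowest of its diet for 12.

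**Figure D3:**
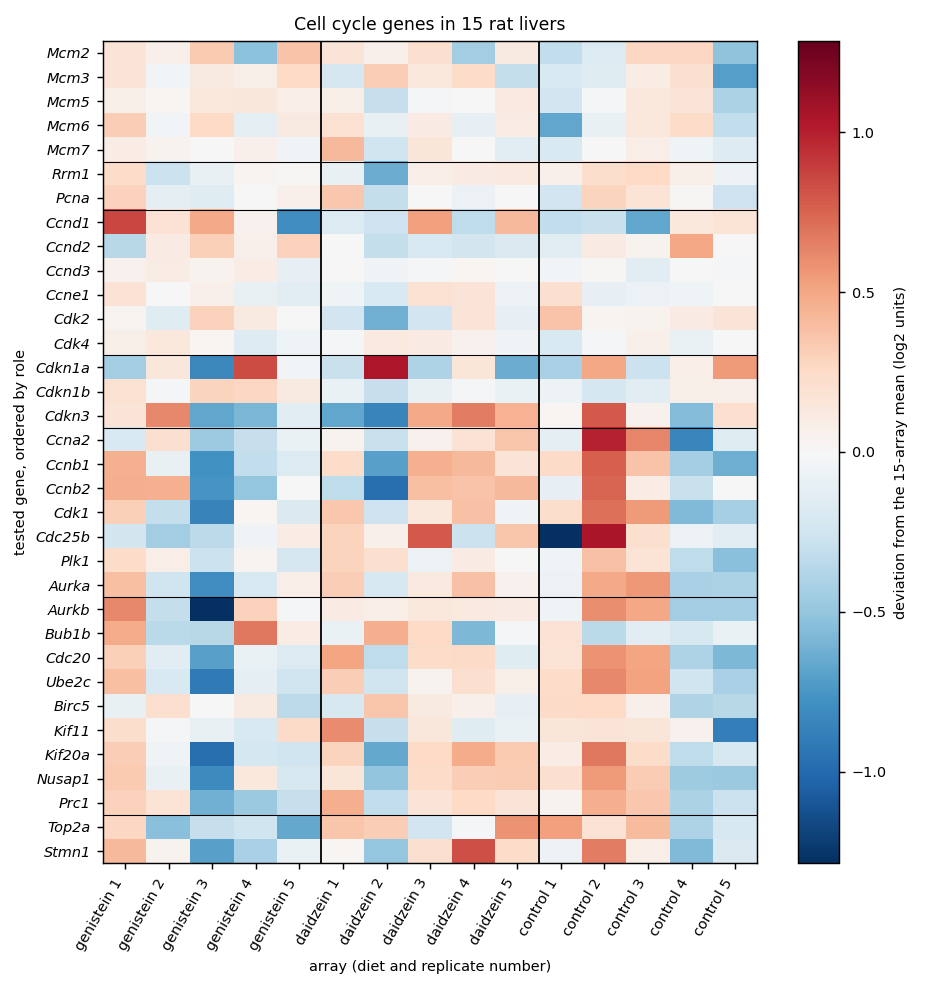
Deviation of each of 34 tested genes (rows, by role) from its mean over 15 arrays, in log2 units, for the arrays of the genistein, daidzein and control diets (columns). Most mitotic rows share columns of one colour, such as the low genistein 3 and the high control 2. The licensing and G1 rows do not follow the mitotic rows in these columns. In other columns the licensing rows do, such as the high control 3 and the low control 5.

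The shared variation was measured as the correlation of each gene with Cdk1 over the 15 arrays after removing diet means. Of the 33 other tested genes, 11 had a Pearson r above 0.7, against 0.548% of all 18624 other probe sets. The closest were Cdc20 (r = 0.96, Spearman rho = 0.96), Ube2c (r = 0.96, rho = 0.95), Aurka, a centrosome kinase (r = 0.94, rho = 0.91), and Nusap1, a spindle protein (r = 0.92, rho = 0.86). They ranked 2, 3, 4 and 8 among all probe sets, and rank 1 was a second probe set of Ccnb1. Ccnb1, the cyclin partner of Cdk1, had r = 0.89, Aurkb r = 0.88, Kif20a r = 0.85, Prc1 r = 0.82, Plk1 r = 0.80, Stmn1 r = 0.77 and Ccna2 r = 0.70. In a permutation test within diets (two-sided, 100000 resamples, adjusted over all 18624 probe sets), 0 probe sets passed and 1090 had an unadjusted p under 0.05. The lowest adjusted permutation p was 0.155, which Cdc20, Ube2c, Aurka and Aurkb had within the set. No permutation p could fall below 9.9999e-06, so a probe set alone at that floor could not pass the adjustment over 18624.

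The correlations were repeated without genistein 3 and control 2, the 2 arrays farthest from the median Cdk1 level. Without them r was 0.94 for Cdc20, 0.90 for Aurka and 0.83 for Ccnb1, but 0.57 for Ccna2, 0.29 for Ccnb2 and -0.12 for Cdc25b. By role, the median r was 0.62 for Pcna and Rrm1 (0.67 and 0.57) and 0.62 for Stmn1 and Top2a (0.77 and 0.47). It was 0.09 for the 5 licensing genes, -0.04 for the 6 G1 genes, among which Ccnd2 was at -0.48, and -0.02 for the 3 inhibitors and phosphatase, among which Cdkn1b was at -0.35. Outside the set, Spc25, a kinetochore protein (r = 0.93), and Tubb5, a tubulin (r = 0.87), ranked high and were named after their values were seen.

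**Figure D4:**
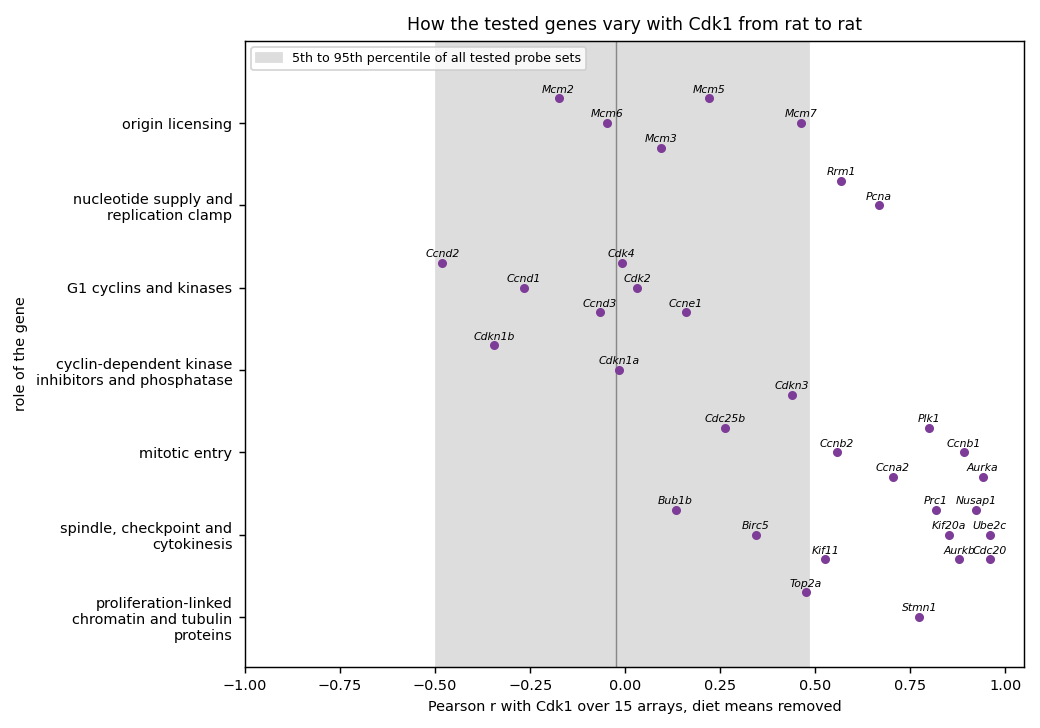
Pearson r of each of 33 tested genes with Cdk1 over 15 arrays with diet means removed (horizontal axis), by role, with the range from the 5th to the 95th percentile of all tested probe sets shaded and their median as a line. Of the 15 mitotic entry and spindle points 10 lie above 0.7, and those of licensing and G1 lie inside the shaded range.

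Markers of other cell types and RNA quality were set against Cdk1 in the same way, in 10 relations. Endothelial markers, with 6 of 8 measured, gave r = -0.66 (permutation p = 0.026, adjusted p = 0.15; rho = -0.61), and r = -0.72 without the 2 farthest arrays. Stellate and fibroblast markers, with 9 of 9 measured, gave r = 0.54 (permutation p = 0.0301, adjusted p = 0.15; rho = 0.41), and r = 0.31 without those arrays. Hepatocyte markers gave r = -0.57 (adjusted permutation p = 0.224), leukocyte markers 0.39 and the ratio of 3' to 5' Gapdh signal 0.38. Marker levels were also summed on the linear scale, not in log2 units. The sums ran from 38.1 to 49.3 for endothelial markers on genistein, 38.8 to 41.7 on daidzein and 38.2 to 48.3 in control. For stellate markers they ran from 55.4 to 60.5, 44.1 to 54.8 and 54.3 to 61.7. Such sums weigh the brightest marker most, which in the stellate list was Col3a1, at a mean log2 level of 5.12. No marker of either list was below the filter. The part of these markers in the variation of the mitotic genes was not tested.

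Promoter letters were read for the genes with a window in the RefSeq table of build GRCr8, which covers 250 bases before and 50 after a gene's start. Of the 45 genes 36 had a window, set beside all 33469 windows. A CCAAT box (CCAAT, bound by NF-Y) lay in 75% of the windows of the set and in 37.5% of all windows. The cell cycle homology region (TTTGAA) lay in 41.7% of the windows of the set and 18.3% of all, and in 7 of 10 spindle windows. An E2F site (TTTGGCGC, TTTCCCGC, TTTCGCGC or TTTGCCGC) lay in 9 of 36 windows, 25%, against 2.14% of all, and in all 6 licensing windows. Both strands were searched, an E2F letter run and its reverse complement can overlap, and a match is a description of the letters.

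The 250 bases before the start are shown for Cdk1, the reference of the correlations, for Cdc20, which had the highest r among the 33 genes by their chosen probe sets, for Mcm5, a licensing gene that did not (r = 0.22), and for Cdkn1b, the gene with the lowest p. Capitals mark matches to these motifs on either strand. Cdk1 lies at chr20:19265043-19265292 on the plus strand, Cdc20 at chr5:137255800-137256049 on the minus strand, Mcm5 at chr19:13488563-13488812 on the plus strand and Cdkn1b at chr4:169491254-169491503 on the plus strand, each read 5′ to 3′ along the gene's strand.
Cdk1: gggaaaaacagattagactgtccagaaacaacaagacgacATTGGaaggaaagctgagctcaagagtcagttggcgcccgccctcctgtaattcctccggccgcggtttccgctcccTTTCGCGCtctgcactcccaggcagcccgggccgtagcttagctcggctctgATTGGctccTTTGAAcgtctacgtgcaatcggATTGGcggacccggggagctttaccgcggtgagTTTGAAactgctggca
Cdc20: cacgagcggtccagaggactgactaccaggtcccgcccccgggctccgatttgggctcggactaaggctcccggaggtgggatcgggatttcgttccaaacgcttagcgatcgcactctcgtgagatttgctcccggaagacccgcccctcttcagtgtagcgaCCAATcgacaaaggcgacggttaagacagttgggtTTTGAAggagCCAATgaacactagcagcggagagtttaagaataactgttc
Mcm5: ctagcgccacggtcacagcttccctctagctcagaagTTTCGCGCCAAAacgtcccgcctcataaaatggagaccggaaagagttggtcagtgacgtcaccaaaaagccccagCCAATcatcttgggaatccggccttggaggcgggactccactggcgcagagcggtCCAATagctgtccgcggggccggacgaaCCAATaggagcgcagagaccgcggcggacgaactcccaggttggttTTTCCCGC
Cdkn1b: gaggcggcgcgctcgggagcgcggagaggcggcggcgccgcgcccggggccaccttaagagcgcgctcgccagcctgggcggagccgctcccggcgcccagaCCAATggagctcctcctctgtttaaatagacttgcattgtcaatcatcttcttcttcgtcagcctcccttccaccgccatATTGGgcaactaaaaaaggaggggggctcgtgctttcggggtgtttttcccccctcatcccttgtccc
The Cdk1 window carries all 3 motifs, Cdc20 the CCAAT box and the homology region, Mcm5 the CCAAT box and E2F sites, and Cdkn1b the CCAAT box alone.

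Other genes of the same pathways were examined in 4 lists, and none was called. The replication fork list had 22 of 33 genes tested, with a median log2 change against control of -0.01 on genistein and 0.00 on daidzein. Its lowest p against control was that of Rfc5, a clamp loader subunit, at 0.18 log2 units on genistein (unadjusted p = 0.0353, adjusted p = 0.414 in limma), and of Pole, a leading-strand polymerase, at -0.36 on daidzein (unadjusted p = 0.034, adjusted p = 0.578). Between the isoflavones it was that of Dnmt1, the maintenance DNA methyltransferase, at 0.25 (unadjusted p = 0.014, adjusted p = 0.368). Of 20 tested other mitotic genes, 8 averaged higher on genistein and 12 higher on daidzein than control, and 2 higher on genistein than on daidzein, with a median of -0.18. Over all probe sets 50.3% were higher on genistein than on daidzein. Genes of this list such as Spc25 and Tubb5 varied together with Cdk1 from array to array, so these counts are not separate observations. Values with single arrays left out are not given for this list. The lowest p in this list was that of Ccnf, a ubiquitin ligase cyclin, at -0.42 log2 units for genistein against daidzein (adjusted p = 0.412 in limma). Of 17 tested Rb-E2F and kinase regulators, E2f2, a transcription factor of the E2F family, had the lowest p, with a log2 change of -0.49 ± 0.13 (SE) for genistein against control (unadjusted p = 0.0026, adjusted p = 0.159 in limma). Of 12 tested p53 and DNA damage genes, 5 averaged higher on genistein and 5 higher on daidzein than control, with medians of -0.02 and -0.16. Zmat3, a p53 target, had a log2 change of 0.29 for genistein and 0.25 for daidzein against control (adjusted p = 0.209 and 0.483 in limma). Others of this list went the other way. Sesn2 and Phlda3 had log2 changes of -0.43 and -0.55 for genistein against control. Sesn1 was at -0.50 for daidzein against control, with the lowest adjusted p of the list there (0.427 in limma).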

How the data were processed

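Liver RNA of 15 rats, 5 per diet, was measured on 1-channel arrays. The values the authors deposited are scores, a standardized log signal per array, whereas the planned design assumed log2 values. The scale was inferred from the values, by fitting to each array a scale that made gaps between repeated values whole intensity steps. At these own scales, 2.54 to 2.79 log2 units per score unit, 375 of 375 gaps were whole steps within 0.001. Scores of all arrays were then multiplied by the mean scale of 2.60, at which the gaps were not counted. For software and background correction, the steps are not given in the sources used here, and the number of arrays limits the precision.

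Array medians differed by up to 0.125 score units, before scaling to log2 units, so arrays were quantile normalized. After dropping 57 control probe sets, the 18625 of 31042 probe sets whose mean level reached the 40th percentile were tested in a 3-group limma fit (limma 3.58.1, R 4.3.3, 12 residual and 2.58 prior degrees of freedom) with Benjamini-Hochberg adjustment at 0.05. Correlations used 100000 permutations within diets and were adjusted over all probe sets, not over the genes of the set as planned. Dim genes come from the same fit without the filter. On simulated data, shifts of 1 log2 unit were recovered for 85, 82 and 86 of 100 probe sets for the genistein diet and the daidzein diet, each against control, and between the isoflavones, with 14, 7 and 10 false calls in those simulations. The shifts were placed in probe sets drawn from all those tested, whose median within-diet SD was 0.22. The genes of the set had a median of 0.358, so these recoveries do not measure what could be detected in the set.

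The genes and lists were chosen with earlier results of these data known. Values in every array are given for genes with unadjusted p under 0.05 and for Ccnd1, Cdkn1a, Mki67, Top2a, Cdk1 and Pcna. Of each pathway list, where none was called, up to 3 genes with the lowest p could be named, with their log2 change alone. Titles call the arrays biological replicates. Alternatives covered normalization, filter, intensity offset, variance model, replicate numbers, probe set choice and leaving out each array.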

Additional observations from a re-analysis of the deposited data

Results flagged for a closer look

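In 12 of 126 groups of 5 arrays, 1 array stood apart from the other 4 by more than 0.71 of the group's range. Chance flags about 1 in 20 such groups. Of the 12, 5 concerned daidzein 2, which was low for Rrm1 at 0.558, Cdkn1b at 1.90, Ccnb1 at 0.697, Kif20a at 0.516 and Nusap1 at 0.357. The other 4 daidzein arrays lay between 1.10 and 1.32 for Rrm1, between 2.11 and 2.18 for Cdkn1b, and between 1.02 and 1.19 for Nusap1. Without daidzein 2, 29 of 34 genes averaged higher on daidzein than in control, with a median log2 change of 0.11.

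Among the other tested genes, Kif11 was low in control 5 at -1.16, where the other control arrays lay between -0.23 and -0.12. Mcm2 was low in daidzein 4 at -0.31. Ccnd3 was low in genistein 5 at 1.48 and in control 3 at 1.43, and its whole range was narrow. Of the dim genes, Gmnn was high in control 1 at 1.38, where the other control arrays lay between -0.86 and -0.50. Tyms was low in genistein 4 at -0.92, and Mad2l1 was low in daidzein 3 at -0.764.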

How the results depend on the processing

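No cell cycle gene was called under any of 25 alternatives to each comparison, leaving out each array in turn included. Over all probe sets the counts moved. For genistein against control the count was 60, and it became 14 with no level filter, 122 with a filter at the 60th percentile, 107 with a trended robust variance and 10 with only the 10 arrays compared. For genistein against daidzein the count was 21, and it became 3, 65, 52 and 2 under those settings and 36 with 16 added to the rebuilt intensities. For daidzein against control it was 3, and it became 7 with the stricter filter and 6 with the trended robust variance. Leaving out 1 array gave 10 to 205, 2 to 8 and 3 to 137 for the genistein and daidzein diets, each against control, and between the isoflavones. The highest came without genistein 4, 205 and 137, and without daidzein 1, 8. The causes were not tested.

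Arrays of different diets with the same title number did not deviate together: 1 of 15 pairs had a correlation over 0.1 (range -0.163 to 0.109). This gave no sign of pairing by title number, but weak correlations cannot exclude a shared block. Pairs by description number were not examined in this way. With the title number as a replicate block the counts were 17 for genistein against control and 2 for genistein against daidzein. With the description number as the block, an alternative chosen after seeing the data, they were 0 on genistein and 0 on daidzein, each against control, and 1 between the isoflavones, where 1427, 1222 and 1692 probe sets had an unadjusted p under 0.05. In that fit control 3 and control 5 shared a block that held no other diet. Its comparisons with control thus rested on control 1, control 2 and control 4. No gene of the set was called with either block, and the description block gave a median change of -0.04 for daidzein against control, where it was 0.06 without the block. With all 1728000 arrangements within diets in place of resampling, also chosen after seeing the data, 0 probe sets correlated with Cdk1 at an adjusted p under 0.05 (lowest 0.0862). Leaving out 1 array moved the median r with Cdk1 over the set between 0.41 and 0.52.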
